A study of Rattus norvegicus with 17 samples.

Results

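Solute carriers are the membrane proteins that move small molecules across the cell surface and the membranes of organelles. The 113 genes described here are the solute carriers with the brighter signals in rat liver, of 14217 genes measured. They were chosen as genes whose symbol begins with Slc and a digit or with Slco, whose brightest probe set with a single gene symbol averaged at least 8 on the log2 scale over all 17 arrays. Slc6a6, Slc1a2, Slc2a2, Slc4a1, Slc10a1, Slc25a20, Slc27a2, Slc27a5 and Slco1a4 were left out by name. Of 308 measured solute carriers, 120 reached the threshold, 7 of those were among the names left out, and 188 lay under it.

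The study gave male Harlan Sprague Dawley rats isopropylated phenol phosphate (IPP), an organophosphate flame retardant, dissolved in corn oil and placed in the stomach by gavage. There were 5 vehicle rats given corn oil alone and 3 rats each at 76.5, 153, 305.5 and 611 mg/kg. The lowest amount corresponds to 0.169 mmol/kg, the next to 0.338, the third to 0.675 and the highest to 1.35 mmol/kg, and the protocol rounds 76.5 to 77 and 305.5 to 306 mg/kg. All animals were dosed on 4 consecutive days, and RNA from the left lobe of the liver, taken on the day after the last dose, went on 1 Affymetrix rat genome array per animal. The age of the rats is not given in the sources used here.

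As background, the hepatocyte takes up bile acids, drugs, amino acids, nucleosides and metals from blood mainly through solute carriers of the SLC and SLCO families, while ABC transporters pump conjugates out into bile or back into blood. Inside the cell the SLC25 family links mitochondria to the cytosol, SLC35 proteins bring nucleotide sugars into the Golgi, and SLC30 and SLC39 proteins move zinc and manganese in opposite directions. Most solute carriers work in families whose members differ in substrate, affinity and membrane, so that neighbours in a family need not have the same role.

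All arrays resembled each other closely, with correlations of 0.974 to 0.995 between pairs. The array of 611 mg/kg rat 2 stood apart in RNA quality, with a log2 difference of 2.89 between the 3' and 5' probe sets of the GAPDH control, against 0.928 to 1.56 on the other 16 arrays. It and 76.5 mg/kg rats 2 and 3 had the lowest median correlations with the other arrays, at 0.984, 0.987 and 0.986 in that order. All 7 measured hepatocyte markers averaged 14.03 or more, and their summed signal was 17.43 to 17.51 at 611 mg/kg against 17.46 to 17.50 in vehicle rats. Summed endothelial markers were 11.91 to 11.94 at 611 mg/kg against 12.30 to 12.54 in vehicle rats, with 4 of 7 called lower, and summed red cell markers were 11.32 to 12.36 against 13.26 to 13.45, with 2 of 6 called lower. Of 10 stellate cell and fibroblast markers 1 was called lower (11.75 to 12.19 at 611 mg/kg against 12.10 to 12.47 in vehicle rats), of 5 cholangiocyte markers 1 was called higher and 1 lower (10.00 to 10.55 against 9.52 to 9.89), and none of 8 macrophage markers was called (12.66 to 13.16 against 12.76 to 13.41). The part of these shifts and of RNA quality in the changes below was not tested, and in whole liver fewer cells of a type and less RNA per cell cannot be told apart.

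Promoter windows of 4 of the genes that moved furthest are shown, to set start sites of members that fell beside those of members that rose. They are RefSeq windows on GRCr8 from 250 bases before to 50 bases after the start, read 5′ to 3′ on the strand of the gene. The windows of Slc34a2, Slc16a1 and Slc16a7 lie inside their genes, whose outer 5′ ends are at 62153020, 194805556 and 63096995. They describe an inner start, so a motif missing from them may still be present at another start of the gene. Slc34a2 and Slc16a1 were lower at 611 mg/kg, and Slc16a7 and Slc46a3 were higher. Capitals mark matches to 5 motifs searched on both strands: the D-box TTATGNAA, the E-box CACGTG, the amino acid response element TGATGNAA, the antioxidant response element TGACNNNGC and the nuclear receptor half-site AGGTCA.
Slc34a2, chr14:62143023-62143322, minus strand: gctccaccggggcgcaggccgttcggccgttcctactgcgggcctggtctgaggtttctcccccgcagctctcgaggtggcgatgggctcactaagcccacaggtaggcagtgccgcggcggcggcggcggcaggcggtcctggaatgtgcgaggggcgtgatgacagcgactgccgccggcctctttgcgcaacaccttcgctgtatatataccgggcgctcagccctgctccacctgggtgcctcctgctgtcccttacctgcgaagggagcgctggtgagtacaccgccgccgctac
Slc16a1, chr2:194812410-194812709, plus strand: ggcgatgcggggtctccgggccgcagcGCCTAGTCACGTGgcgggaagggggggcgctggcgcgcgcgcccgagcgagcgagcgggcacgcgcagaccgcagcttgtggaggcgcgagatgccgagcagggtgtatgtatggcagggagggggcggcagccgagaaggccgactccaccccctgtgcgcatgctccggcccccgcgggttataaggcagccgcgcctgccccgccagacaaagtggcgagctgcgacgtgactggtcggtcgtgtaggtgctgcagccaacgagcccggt
Slc16a7, chr7:63040349-63040648, minus strand: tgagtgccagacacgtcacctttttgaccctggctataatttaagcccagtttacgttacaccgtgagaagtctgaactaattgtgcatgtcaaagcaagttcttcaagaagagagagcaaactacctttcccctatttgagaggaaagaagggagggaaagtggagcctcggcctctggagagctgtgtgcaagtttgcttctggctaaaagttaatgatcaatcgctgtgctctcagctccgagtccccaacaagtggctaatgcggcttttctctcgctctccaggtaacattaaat
Slc46a3, chr12:12176584-12176883, plus strand: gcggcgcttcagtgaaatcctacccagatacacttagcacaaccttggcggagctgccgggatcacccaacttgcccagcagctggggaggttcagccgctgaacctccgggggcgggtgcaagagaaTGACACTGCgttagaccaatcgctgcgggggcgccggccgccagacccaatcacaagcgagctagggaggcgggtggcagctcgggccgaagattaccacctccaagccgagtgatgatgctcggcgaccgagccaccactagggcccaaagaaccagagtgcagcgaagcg
In the Slc16a1 window the E-box began at position -216 and an antioxidant response element on the other strand at -223, so that the matches overlapped. The Slc46a3 window held an antioxidant response element at -122, and the letters of the 5 motifs were not in the windows of Slc34a2 and Slc16a7. They were also absent from the windows of Slc25a22 and Slc4a4, which are not shown. The Slc4a4 window, too, lies inside its gene. Slc25a22 and Slc4a4 differed from vehicle by -0.79 and 0.73 at 611 mg/kg, and Slc16a1 and Slc46a3 by -0.77 and 0.69. A link between the motifs and the changes was not tested. RefSeq windows were at hand for 95 of the 113 members, 101 windows in all. The E-box was in 11.9% of them against 6.42% of all 33469 windows, the antioxidant response element in 16.8% against 12.1%, and the nuclear receptor half-site in 13.9% against 16.2%. The D-box was in 2.97% against 3.66% and the amino acid response element in 1.98% against 3.98%. Median GC content was 61.7% in the members' windows against 51.7% in all windows, which bears on how often a GC-rich motif is met.

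The members' mean signals ran from 8.001 to 12.94 with a median of 9.59. Signals of different probe sets depend on the probes as well as on the RNA, so their order is a description of the arrays and not of transcript number. The ADP/ATP carrier Slc25a5 (12.94), the ornithine carrier Slc25a15 (12.62), the amino acid transporter Slc38a4 (12.62), the glucose 6-phosphate transporter Slc37a4 (12.39) and the aspartate-glutamate carrier Slc25a13 (12.38) had the brightest probe sets. They were followed by Slc22a18, an imprinted organic cation transporter gene (12.20), the phosphate carrier Slc25a3 (12.17), the glutamine transporter Slc38a3 (12.002), the bile acid and drug uptake transporter Slco1b2 (11.93) and the magnesium transporter Slc41a2 (11.89). Just inside the threshold lay Slc25a29 at 8.004, Slc15a4 at 8.003 and Slc45a4 at 8.001, and just outside it Slc9a8 at 7.99, Slc35b2 at 7.98 and Slc31a2 at 7.92. All 5 group means reached 8 for 102 members. The other 11 had a group mean under 8, among them Slc34a2, Slc30a3, Slc43a2 and Slc15a4. These passed through the groups in which they were high and therefore had to differ between groups. For Slc34a2, Slc30a3, Slc43a2 and Slc15a4 the values are given below as a description, with no test. Slc7a6os and Slc4a1ap are named after a carrier and are not carriers themselves.

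The counts of called members depended on the dose and on how the arrays were weighted. With all arrays weighted equally they were 0, 1, 4 and 18 at 76.5, 153, 305.5 and 611 mg/kg. With weights per array they were 11, 7, 14 and 26, and without 611 mg/kg rat 2 and 76.5 mg/kg rats 2 and 3 they were 0, 7, 10 and 18. The shares of all genes called with these settings are not given here, so these counts are not read as results about the members. The values below are from equal weights. At 76.5 mg/kg 0 of 113 members were called (limma, Benjamini-Hochberg adjusted p under 0.05) and 0.267% of all genes were. At an unadjusted p under 0.05 the count was 19 members, 5 higher and 14 lower, which is 16.8% against 10.7% of all genes (5.56% higher and 5.18% lower). At 153 mg/kg 1 member was called, higher, where 0.746% of all genes were called and 0.408% were higher. At 305.5 mg/kg 4 were called, all lower, where 2.22% of all genes were called and 1.47% were lower. These are 0.885% and 3.54% of the members, near the 1.34% and 3.59% among the 5909 other genes with a mean of at least 8. The count at 153 mg/kg was 0 without vehicle rat 1, 3 or 4 or any 1 of the rats at that dose. It was 2 when vehicle rat 2 was left out and 3 when 76.5 mg/kg rat 3 was. The count at 305.5 mg/kg was 1 without rat 1 or 2 at that dose, 2 without its rat 3 or vehicle rat 1, 2 or 3, and 8 without 76.5 mg/kg rat 3. Shares of all genes called without these rats are not given here, so these counts too are not read as results about the members.

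At 611 mg/kg 18 members were called, 10 higher and 8 lower, or 15.9% of them. The share was 7.46% of all genes (5.04% higher and 2.42% lower), 9.90% of the other genes with a mean of at least 8 and 4.79% of the 188 solute carriers under the threshold. Slc34a2 and Slc30a3 are among the 8 lower members. Of the 102 members with all 5 group means at 8 or more, 16 were called (10 higher and 6 lower), or 15.7% against 9.20% of the other genes that met the same condition. With each array centred on its median the split was 8 higher and 10 lower, and with quantile normalization repeated it was 6 higher and 10 lower. Shares of all genes called with these settings are not given here, so the splits describe dependence on the processing alone. The slope over dose rank, where vehicle is 0 and 611 mg/kg is 4, was called for 22 members, 13 higher and 9 lower. That is 19.5% of members against 6.74% of all genes (3.96% higher and 2.78% lower) and 9.76% of the other genes with a mean of at least 8. Slc34a2, Slc30a3 and Slc43a2 are among the 9 lower members, and of the 102 members with all 5 group means at 8 or more 19 were called, or 18.6% against 9.13% of the other genes that met the condition. Slopes per dose rank of the called members ran from 0.05 (Slc22a18) to 0.18 (Slc16a7) upward and from -0.06 (Slc43a2) to -0.40 (Slc34a2) downward. Without 611 mg/kg rat 3 the slope was called for 13 members, and without vehicle rat 4 for 14. The shares of all genes called in these fits are not given here either. Altogether 23 members were called in at least 1 of the 6 comparisons and 90 in none, which is 20.4% called against 9.90% of all genes and 13.1% of the other genes with a mean of at least 8, and 17 were called both at 611 mg/kg and for the slope. Over the treated rats alone the slope was called for 0 members and for 5 of all genes.

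**Figure D1:**
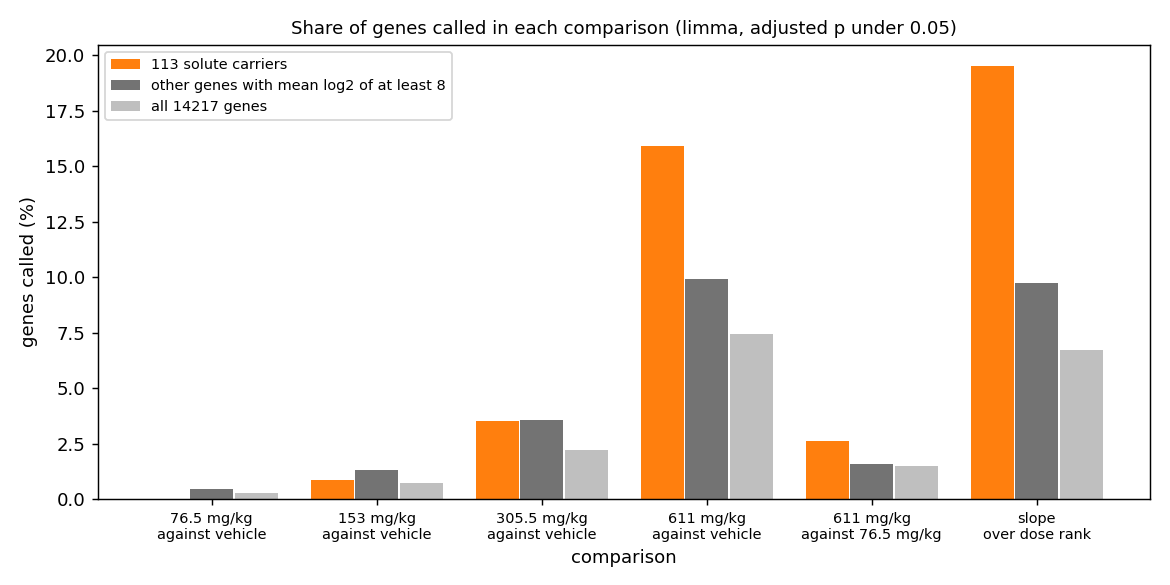
Bars give the percentage of genes called in each comparison for the 113 solute carriers, the other genes with a mean log2 signal of at least 8, and all 14217 genes. The solute carriers reach 15.9% at 611 mg/kg and 19.5% for the slope over dose rank, and lie near the other bright genes at 153 and 305.5 mg/kg.

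The members' median log2 difference from vehicle was -0.01, 0.07, 0.02 and 0.08 at 76.5, 153, 305.5 and 611 mg/kg, against 0.02, 0.07, -0.01 and 0.08 for the other genes with a mean of at least 8. All 14217 genes had medians of 0.01, 0.01, 0.01 and 0.00. At 611 mg/kg 11 members differed by at least 0.5, and Slc34a2 alone by at least 1. The 11 are 9.73% of members, against 5.99% of all genes and 7.82% of the other genes with a mean of at least 8. They include Slc34a2 and Slc30a3, which passed the threshold through the groups in which they were high. The median 95% interval of a member's difference from vehicle was ±0.26.

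**Figure D2:**
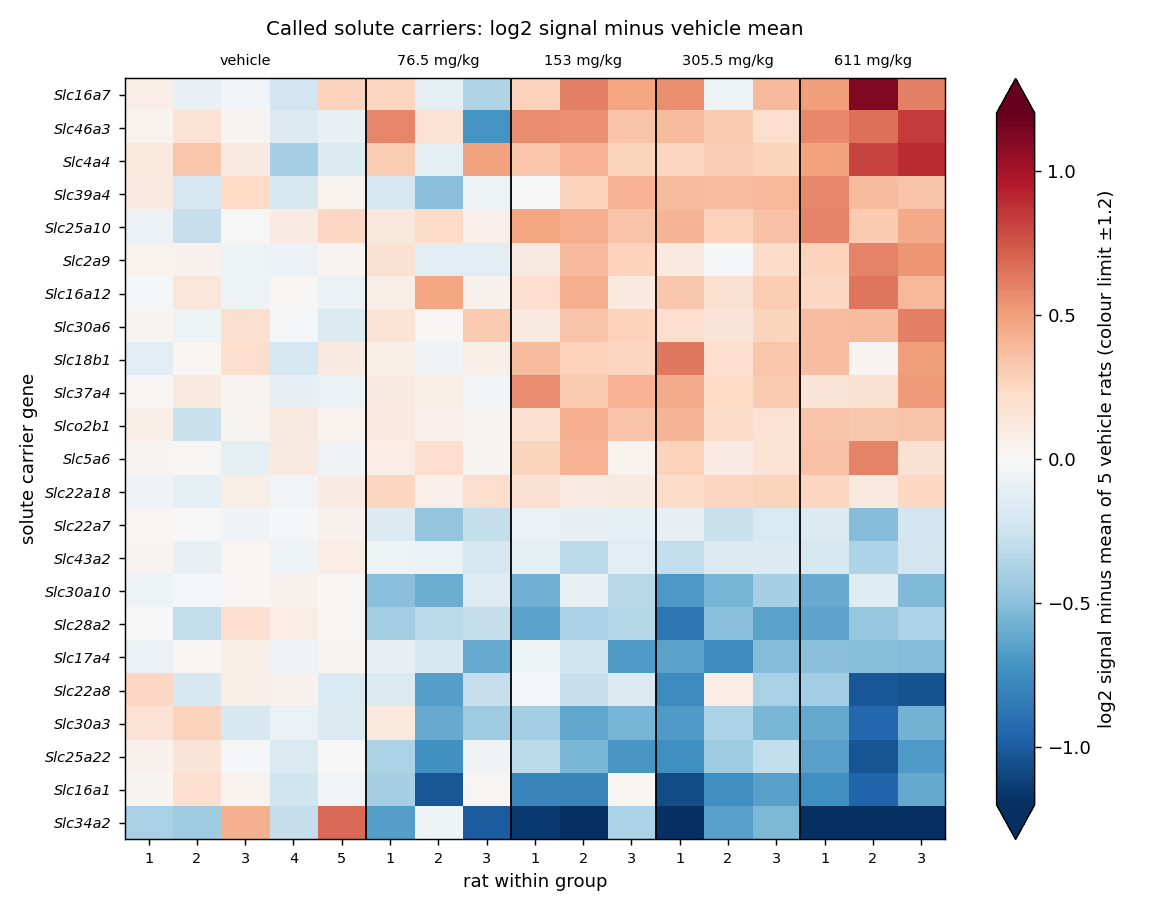
Each row is 1 of the 23 solute carriers called in some comparison and each column 1 rat, grouped from vehicle to 611 mg/kg; colour gives the log2 signal minus the vehicle mean, red above and blue below. Slc34a2, at the bottom, has the deepest blue at 611 mg/kg, and Slc16a7 and Slc46a3 lie at the top.

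Of the 8 members of the phosphate, sulfate and urate families, Slc17a4 was called lower, and Slc34a2 was lower too but is one of the genes described without a test. At 611 mg/kg 2.42% of all genes were called lower. Slc34a2 encodes a sodium-dependent phosphate cotransporter of epithelial surfaces. Its signal was 8.498, 8.46, 9.31, 8.60 and 9.56 in vehicle rats, 8.22, 8.84 and 7.89 at 76.5 mg/kg, 7.73, 7.43 and 8.51 at 153 mg/kg, 7.505, 8.23 and 8.35 at 305.5 mg/kg and 7.15, 6.61 and 7.37 at 611 mg/kg. All 3 rats at 611 mg/kg lay below every other rat, and the vehicle rats themselves were widely spread. The difference at 611 mg/kg was -1.84 ± 0.31 from vehicle (log2, SE), or 0.279-fold, and -1.27 ± 0.34 from 76.5 mg/kg. The mean of the group was at least 8 in only 3 of the 5 groups.

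Slc17a4, an organic anion and phosphate transporter of the SLC17 family, was evenly low at the 2 higher doses. It read 9.40, 9.48, 9.54, 9.42 and 9.50 in vehicle rats, 9.37, 9.28 and 8.86 at 76.5 mg/kg, 9.42, 9.23 and 8.79 at 153 mg/kg, 8.83, 8.71 and 8.95 at 305.5 mg/kg and 8.97, 8.96 and 8.95 at 611 mg/kg. Its differences were -0.64 ± 0.13 at 305.5 mg/kg (adjusted p = 0.0125) and -0.51 ± 0.13 at 611 mg/kg (adjusted p = 0.0226). Without 305.5 mg/kg rat 1 or 2 the adjusted p at that dose was 0.0578 or 0.0811. The call at 611 mg/kg was lost in 2 of 17 fits without 1 rat, those without 611 mg/kg rat 2 or 3 (adjusted p 0.0799 and 0.0632). On chromosome 17 Slc17a4 has Slc17a1, Slc17a3 and Slc17a2 as its next protein-coding neighbours, in that order. At 611 mg/kg their differences from vehicle were 0.27, 0.09 and -0.04, none of them called. Slc17a2 had the brightest probe set of this class and averaged 11.52 ± 0.17 at 611 mg/kg (SD, n = 3) against 11.56 ± 0.12 in vehicle rats (SD, n = 5).

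The monocarboxylate transporters moved in both directions. This class holds the SLC16 family and the sodium-coupled SLC13 family, 5 members in all. At 611 mg/kg 3 of them were called, where 7.46% of all genes were. Slc16a1 encodes MCT1, which carries lactate, pyruvate and ketone bodies. It read 11.65, 11.83, 11.66, 11.38 and 11.59 in vehicle rats, 11.22, 10.59 and 11.63 at 76.5 mg/kg, 10.82, 10.83 and 11.64 at 153 mg/kg, 10.55, 10.89 and 10.97 at 305.5 mg/kg and 10.88, 10.66 and 11.01 at 611 mg/kg. At each of the 2 lower doses 1 rat was as high as vehicle, and at the 2 higher doses none was. Its differences were -0.82 ± 0.21 at 305.5 mg/kg (adjusted p = 0.0458) and -0.77 ± 0.21 at 611 mg/kg (adjusted p = 0.0306). The call at 611 mg/kg was lost without any of vehicle rats 1, 2, 3 and 5 or of the 3 rats at that dose (adjusted p 0.0517 to 0.151), and the call at 305.5 mg/kg in 11 of 17 such fits (0.05005 to 0.238). The second Slc16a1 probe set averaged 5.55 and differed by 0.33 at 305.5 mg/kg and by -0.05 at 611 mg/kg. With both probe sets averaged, both calls were lost (adjusted p = 0.441 at 305.5 mg/kg and 0.0674 at 611 mg/kg).

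Slc16a7 encodes MCT2, a relative of MCT1 with higher affinity for pyruvate, and went the other way. Its signal was 9.76, 9.59, 9.64, 9.44 and 9.96 in vehicle rats, 9.93, 9.57 and 9.32 at 76.5 mg/kg, 9.95, 10.28 and 10.15 at 153 mg/kg, 10.24, 9.63 and 10.07 at 305.5 mg/kg and 10.18, 10.79 and 10.29 at 611 mg/kg. Every rat at 611 mg/kg was above every vehicle rat and above every rat at 76.5 mg/kg. The difference was 0.74 ± 0.17 against vehicle, or 1.67-fold (adjusted p = 0.0143), and 0.81 ± 0.19 against 76.5 mg/kg (adjusted p = 0.0435). Without 611 mg/kg rat 2, which was the highest, the adjusted p against vehicle was 0.108 and against 76.5 mg/kg 0.187. The call against 76.5 mg/kg was lost in 11 of 17 such fits (adjusted p 0.0515 to 0.187).

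Slc16a12, whose human counterpart transports creatine, had group means that rose at every step, as did those of 1.84% of all genes. Its group means were 11.01 ± 0.09 in vehicle rats (SD, n = 5), 11.21 ± 0.24, 11.27 ± 0.16, 11.29 ± 0.08 and 11.44 ± 0.20 at the 4 doses in order (SD, n = 3 each). At 611 mg/kg it was higher than vehicle by 0.43 ± 0.11 (adjusted p = 0.0271), a call that was lost without vehicle rat 1, 3 or 5 or 611 mg/kg rat 2 or 3 (adjusted p 0.0526 to 0.170). With its dimmer second probe set averaged in, the adjusted p was 0.174.

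**Figure D3:**
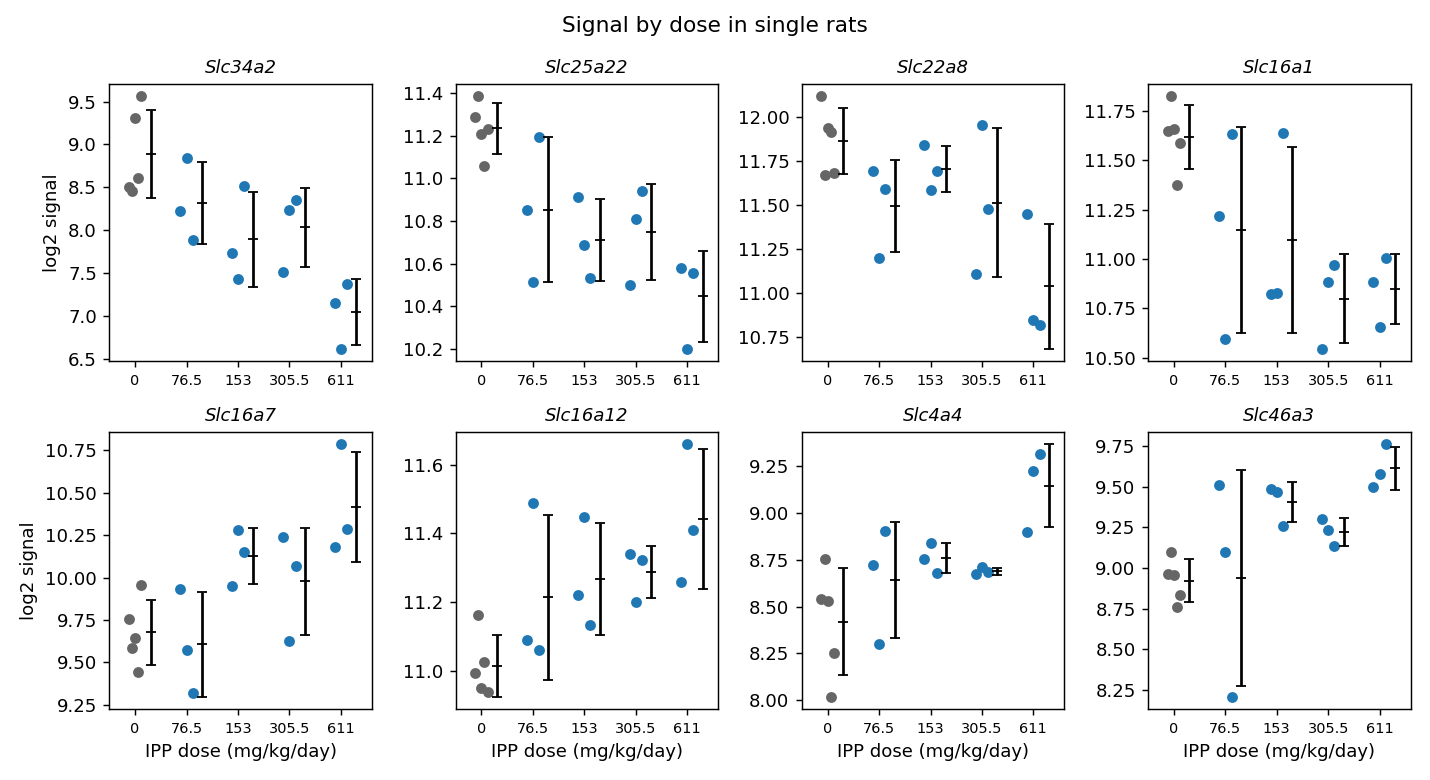
Points are single rats, placed by IPP dose in mg/kg/day (0 is vehicle), on a log2 signal axis that differs between panels and does not start at 0; the black mark and bar give the mean and SD of each group. In the upper row the 611 mg/kg rats lie below all vehicle rats, and in the lower row above them.

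Slc13a4, a sulfate transporter of the SLC13 family, was not called in any comparison, although its treated rats lay apart from its vehicle rats. It read 10.84, 10.94, 10.68, 10.56 and 10.77 in vehicle rats, 10.53, 10.27 and 8.91 at 76.5 mg/kg, 10.37, 10.11 and 10.37 at 153 mg/kg, 9.70, 10.13 and 10.54 at 305.5 mg/kg and 10.06, 9.91 and 10.10 at 611 mg/kg. All 12 treated rats were below all 5 vehicle rats, with 76.5 mg/kg rat 3 far below the rest. The margin was narrow, at 10.54 for the highest treated rat and 10.56 for the lowest vehicle rat, and the dose groups overlapped each other. The difference at 611 mg/kg was -0.73 ± 0.26 (adjusted p = 0.0943). The organic anion transporter Slc22a7 and the manganese exporter Slc30a10 were the other 2 members with all 12 treated rats below all vehicle rats, so the count was 3 members, or 2.65%, against 0.542% of all genes. No member had all 12 treated rats above vehicle, against 0.549% of all genes.

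Of the 7 organic ion and drug transporters outside the SLCO family, 2 were called at 611 mg/kg, both lower, where 2.42% of all genes were lower. Another 2 were called higher for the slope alone, where 3.96% of all genes were higher. Slc22a8 encodes OAT3, which takes up organic anions. It read 12.12, 11.67, 11.93, 11.91 and 11.68 in vehicle rats, 11.69, 11.20 and 11.59 at 76.5 mg/kg, 11.84, 11.58 and 11.69 at 153 mg/kg, 11.11, 11.95 and 11.47 at 305.5 mg/kg and 11.44, 10.84 and 10.82 at 611 mg/kg. Rats at 153 and 305.5 mg/kg overlapped the vehicle rats, and those at 611 mg/kg did not. The difference at 611 mg/kg was -0.83 ± 0.18, or 0.564-fold (adjusted p = 0.00987), and was no longer called without 611 mg/kg rat 2 or 3 (adjusted p 0.0644 and 0.0515). A second probe set of the gene differed by -0.98.

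Slc22a7 encodes OAT2, a further organic anion transporter. It was 11.68, 11.33 and 11.61 at 611 mg/kg against 11.86, 11.84, 11.80, 11.82 and 11.90 in vehicle rats. The vehicle rats were tightly grouped, and the fall was small, at -0.31 ± 0.08 (adjusted p = 0.0356). The difference at 76.5 mg/kg was of the same size but not called (-0.31 ± 0.08, adjusted p = 0.179), and the slope over dose rank was not called (adjusted p = 0.148). At 611 mg/kg the call was lost without any 1 of the 5 vehicle rats and without 611 mg/kg rat 2 or 3 (adjusted p 0.0519 to 0.226).

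Slc22a18 and Slc18b1, a vesicular polyamine transporter, were called only for the slope, at 0.05 (adjusted p = 0.0496) and 0.10 (adjusted p = 0.0442) per dose rank. Slc22a18 was 12.33, 12.19 and 12.32 at 611 mg/kg against 12.03, 11.96, 12.15, 12.04 and 12.16 in vehicle rats, within the narrow range of 0.37 over all 17 rats. Slc18b1 was 9.29, 8.95 and 9.42 at 611 mg/kg against 8.79, 8.94, 9.14, 8.71 and 9.03 in vehicle rats, so its groups overlapped at that dose. Both slope calls were lost in most fits without 1 rat, 13 of 17 for Slc22a18 (adjusted p 0.0574 to 0.109) and 12 of 17 for Slc18b1 (0.0509 to 0.109).

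Of the 4 SLCO transporters, which take up bile acids, steroid conjugates and drugs, 1 was called at 611 mg/kg, against 7.46% of all genes. Slco2b1 was 10.65, 10.64 and 10.66 at 611 mg/kg against 10.39, 10.04, 10.35, 10.42 and 10.36 in vehicle rats, higher by 0.34 ± 0.09 (adjusted p = 0.0348). Its second, dimmer probe set differed by -0.11, and the mean of both gave an adjusted p of 0.630. The call was lost without vehicle rat 2, 3 or 5 or any 1 of the 611 mg/kg rats (adjusted p 0.0520 to 0.101). Slco1b2 averaged 11.98 ± 0.09 at 611 mg/kg (SD, n = 3) against 12.03 ± 0.12 in vehicle rats (SD, n = 5) and was not called (-0.05 ± 0.10, adjusted p = 0.799).

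Of the 22 mitochondrial carriers 2 were called at 611 mg/kg, 1 in each direction, where 7.46% of all genes were called. Slc25a22 encodes a glutamate carrier of the inner membrane. It read 11.29, 11.38, 11.21, 11.06 and 11.23 in vehicle rats, 10.85, 10.51 and 11.19 at 76.5 mg/kg, 10.91, 10.69 and 10.53 at 153 mg/kg, 10.50, 10.81 and 10.94 at 305.5 mg/kg and 10.58, 10.20 and 10.56 at 611 mg/kg. Apart from 76.5 mg/kg rat 3, every treated rat was below every vehicle rat. The difference at 611 mg/kg was -0.79 ± 0.14, or 0.579-fold (adjusted p = 0.00382), and it kept its call in all 17 fits that each left out 1 rat.

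Slc25a10, the dicarboxylate carrier that exchanges malate and succinate for phosphate, was 10.85, 10.57 and 10.71 at 611 mg/kg against 10.18, 9.98, 10.26, 10.36 and 10.50 in vehicle rats. All 3 treated rats lay above the vehicle range. The rise was 0.45 ± 0.10 (adjusted p = 0.0132), lost only without 611 mg/kg rat 1 among fits that left out 1 rat (adjusted p = 0.0545), and a second probe set differed by 0.67. The 4 brightest carriers of the class were not called in any comparison. Slc25a5 averaged 12.81 ± 0.40 at 611 mg/kg (SD, n = 3) against 12.94 ± 0.09 in vehicle rats (SD, n = 5), with 611 mg/kg rat 2 at 12.35 and the other 2 at 13.02 and 13.07. Slc25a3 showed the same rat apart, at 11.47 beside 12.33 and 12.26. Slc25a15 differed by -0.23 ± 0.13 at 611 mg/kg (adjusted p = 0.301), and Slc25a13 differed by 0.02 ± 0.08 (adjusted p = 0.898). Slc25a30, a mitochondrial carrier first described in kidney, varied most in the class, by 1.74 over all rats, with 10.25, 9.77 and 8.79 at 611 mg/kg against 8.92 to 10.14 in vehicle rats.

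Sugar handling was represented by Slc37a4 and by 5 members of the SLC2, SLC5, SLC45 and SLC50 families. Slc37a4 brings glucose 6-phosphate into the endoplasmic reticulum, where it is cleaved to glucose. It read 12.21, 12.31, 12.23, 12.10 and 12.12 in vehicle rats, 12.31, 12.27 and 12.16 at 76.5 mg/kg, 12.77, 12.51 and 12.61 at 153 mg/kg, 12.65, 12.43 and 12.51 at 305.5 mg/kg and 12.35, 12.38 and 12.71 at 611 mg/kg. The 9 rats at the 3 higher doses all lay above the vehicle range. It was the only member called at 153 mg/kg (0.43 ± 0.09, adjusted p = 0.0312), and the differences at 305.5 mg/kg (0.33 ± 0.09, adjusted p = 0.0627) and 611 mg/kg (0.28 ± 0.09, adjusted p = 0.0649) did not pass the test. Without vehicle rat 1, 3, 4 or 5 or any 1 of the 153 mg/kg rats the adjusted p at 153 mg/kg was 0.0528 to 0.173.

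Slc2a9, the urate transporter GLUT9, was 8.44, 8.76 and 8.69 at 611 mg/kg against 8.21, 8.21, 8.10, 8.09 and 8.19 in vehicle rats and 8.35, 8.03 and 8.03 at 76.5 mg/kg. The rats at 611 mg/kg were above both other groups. It was higher by 0.47 ± 0.10 against vehicle (adjusted p = 0.0115) and by 0.49 ± 0.12 against 76.5 mg/kg (adjusted p = 0.0435), and without 611 mg/kg rat 2 these adjusted p-values were 0.0713 and 0.163. The call against 76.5 mg/kg was lost in 12 of 17 such fits (adjusted p 0.0530 to 0.163). Slc5a6, which belongs to a sugar transporter family but carries biotin and pantothenate, was 9.91, 10.14 and 9.73 at 611 mg/kg against 9.58, 9.56, 9.45, 9.66 and 9.50 in vehicle rats. Its rise of 0.38 ± 0.10 (adjusted p = 0.0341) was lost without vehicle rat 1, 2, 3 or 5 or 611 mg/kg rat 1 or 2 (adjusted p 0.0544 to 0.206).

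Among 5 vitamin and choline transporters Slc46a3 was called at 611 mg/kg, against 7.46% of all genes. It is a lysosomal member of the family of the folate transporter Slc46a1. Its signal was 8.96, 9.10, 8.96, 8.76 and 8.83 in vehicle rats, 9.51, 9.10 and 8.21 at 76.5 mg/kg, 9.49, 9.47 and 9.26 at 153 mg/kg, 9.30, 9.23 and 9.13 at 305.5 mg/kg and 9.50, 9.58 and 9.76 at 611 mg/kg. From 153 mg/kg upward every rat was above every vehicle rat, whereas the 76.5 mg/kg rats ran from the lowest of all 17 to the level of the 611 mg/kg rats. The difference at 611 mg/kg was 0.69 ± 0.19, or 1.61-fold (adjusted p = 0.0354), and it was lost without vehicle rat 1, 3, 4 or 5 or any 1 of the 611 mg/kg rats (adjusted p 0.0521 to 0.116). The thiamine transporter Slc19a2, brightest of the class, averaged 11.50 ± 0.18 at 611 mg/kg (SD, n = 3) against 11.18 ± 0.18 in vehicle rats (SD, n = 5) and was not called (adjusted p = 0.200).

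Of the 9 bicarbonate, proton, chloride and cation family members 1 was called at 611 mg/kg, against 7.46% of all genes. Slc4a4 encodes a sodium bicarbonate cotransporter. It was 8.90, 9.23 and 9.32 at 611 mg/kg against 8.54, 8.75, 8.53, 8.02 and 8.25 in vehicle rats. The 3 treated rats were above the vehicle range, and the rats at 305.5 mg/kg, at 8.67, 8.71 and 8.69, were inside it. The rise at 611 mg/kg was 0.73 ± 0.15, or 1.66-fold (adjusted p = 0.00910), and it kept its call in all 17 fits without 1 rat, although not when its dimmer second probe set was averaged in (adjusted p = 0.0762). The sulfate and oxalate exchanger Slc26a1, the brightest of the class, differed by -0.17 ± 0.14 (adjusted p = 0.465).

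Of the 19 zinc, copper, iron, manganese and magnesium transporters 2 were called higher at 611 mg/kg, where 5.04% of all genes were higher. Slc30a3 was lower at that dose but is one of the genes described without a test. Slc30a10 was called lower at 305.5 mg/kg and for the slope. Slc30a10 exports manganese from the cell. It read 10.39, 10.44, 10.46, 10.50 and 10.47 in vehicle rats, 9.95, 9.86 and 10.30 at 76.5 mg/kg, 9.88, 10.36 and 10.12 at 153 mg/kg, 9.76, 9.89 and 10.05 at 305.5 mg/kg and 9.85, 10.31 and 9.93 at 611 mg/kg. Every treated rat, those at the lowest dose included, lay below every vehicle rat, with no order among the doses. The difference was called at 305.5 mg/kg (-0.55 ± 0.13, adjusted p = 0.0282) and missed the threshold at 611 mg/kg (-0.43 ± 0.13, adjusted p = 0.0508). Without any 1 of the vehicle rats or of the 305.5 mg/kg rats the adjusted p at 305.5 mg/kg was 0.0505 to 0.156.

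Slc30a3 encodes ZnT3, a transporter that loads vesicles with zinc. It was 7.75, 7.43 and 7.81 at 611 mg/kg against 8.54, 8.65, 8.18, 8.29 and 8.20 in vehicle rats. Its group means fell at every step of dose, as did those of 1.55% of all genes. The difference at 611 mg/kg was -0.71 ± 0.15, given without a test, since its mean reached 8 in only 2 of the 5 groups. The zinc importer Slc39a4 was 9.48, 9.28 and 9.25 at 611 mg/kg against 8.70, 8.40 and 8.84 at 76.5 mg/kg, and 9.02, 8.70, 9.14, 8.71 and 8.94 in vehicle rats. It was higher at 611 mg/kg by 0.69 ± 0.14 against 76.5 mg/kg (adjusted p = 0.0232) and by 0.43 ± 0.13 against vehicle (adjusted p = 0.0431). Against vehicle its call was lost in 12 of 17 fits without 1 rat (adjusted p 0.0504 to 0.126). Against 76.5 mg/kg it was lost without 76.5 mg/kg rat 2 or 611 mg/kg rat 1 or 2 (0.0543 to 0.0624).

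Slc30a6, a zinc transporter of the secretory pathway, was 8.45, 8.46 and 8.69 at 611 mg/kg against 8.12, 8.03, 8.27, 8.07 and 7.92 in vehicle rats. It was higher by 0.45 ± 0.10 (adjusted p = 0.0115), and 0.0618 without 611 mg/kg rat 3. Slc41a2 and Slc39a1 were not called at any dose. The zinc importer Slc39a1 had a lower group mean at each step of dose, with 11.30 ± 0.08 at 611 mg/kg (SD, n = 3) against 11.53 ± 0.09 in vehicle rats (SD, n = 5), and its slope was not called (adjusted p = 0.0562).

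Of 13 nucleoside, nucleotide sugar and acetyl-CoA transporters 1 was called, at 305.5 and 611 mg/kg, against 2.22% and 7.46% of all genes. Slc28a2 is a sodium-dependent transporter of purine nucleosides. It read 9.96, 9.67, 10.17, 10.06 and 9.98 in vehicle rats, 9.55, 9.64 and 9.68 at 76.5 mg/kg, 9.33, 9.58 and 9.63 at 153 mg/kg, 9.09, 9.47 and 9.33 at 305.5 mg/kg and 9.33, 9.51 and 9.59 at 611 mg/kg. Apart from 76.5 mg/kg rat 3, level with the lowest vehicle rat, every treated rat lay below every vehicle rat, and the lowest group was 305.5 mg/kg. Its differences were -0.67 ± 0.12 at 305.5 mg/kg (adjusted p = 0.00458) and -0.49 ± 0.12 at 611 mg/kg (adjusted p = 0.0167). The call at 305.5 mg/kg was kept in all 17 fits without 1 rat, and that at 611 mg/kg was lost without 611 mg/kg rat 1 or 2 (adjusted p 0.0640 and 0.0554). Slc33a1, which brings acetyl-CoA into the endoplasmic reticulum, differed by 0.20 ± 0.10 at 611 mg/kg (adjusted p = 0.213). Slc35d2, a nucleotide sugar transporter, was 9.87, 10.47 and 9.90 at 611 mg/kg against 9.43, 9.68, 9.33, 9.25 and 9.40 in vehicle rats and was not called (0.66 ± 0.26, adjusted p = 0.131). Its rats at 76.5 mg/kg ran from 8.47 to 10.08.

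Of the 12 members in amino acid transporter families none was called in any comparison apart from Slc43a2, whose mean was under 8 in 1 of the 5 groups and which is described without a test. Of all genes 9.90% were called in at least 1 comparison. Slc43a2 encodes a transporter of large neutral amino acids and was 8.03, 7.85 and 8.002 at 611 mg/kg against 8.25, 8.14, 8.24, 8.17 and 8.31 in vehicle rats. Its group means fell at every step, as did those of 1.55% of all genes, and its slope was -0.06 per dose rank. Slc38a4 and Slc38a3 were not called, with differences of 0.14 ± 0.11 and -0.06 ± 0.07 at 611 mg/kg (adjusted p = 0.427 and 0.665). The fatty acid transport proteins Slc27a4 and Slc27a1 differed by -0.01 ± 0.08 and -0.08 ± 0.10 (adjusted p = 0.970 and 0.662). Slc15a4, a lysosomal transporter of peptides and histidine, differed by -0.09 ± 0.15 at 611 mg/kg and by -0.53 ± 0.15 at 305.5 mg/kg. Its mean reached 8 in only 2 of the 5 groups, so these differences are given without a test.

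**Figure D4:**
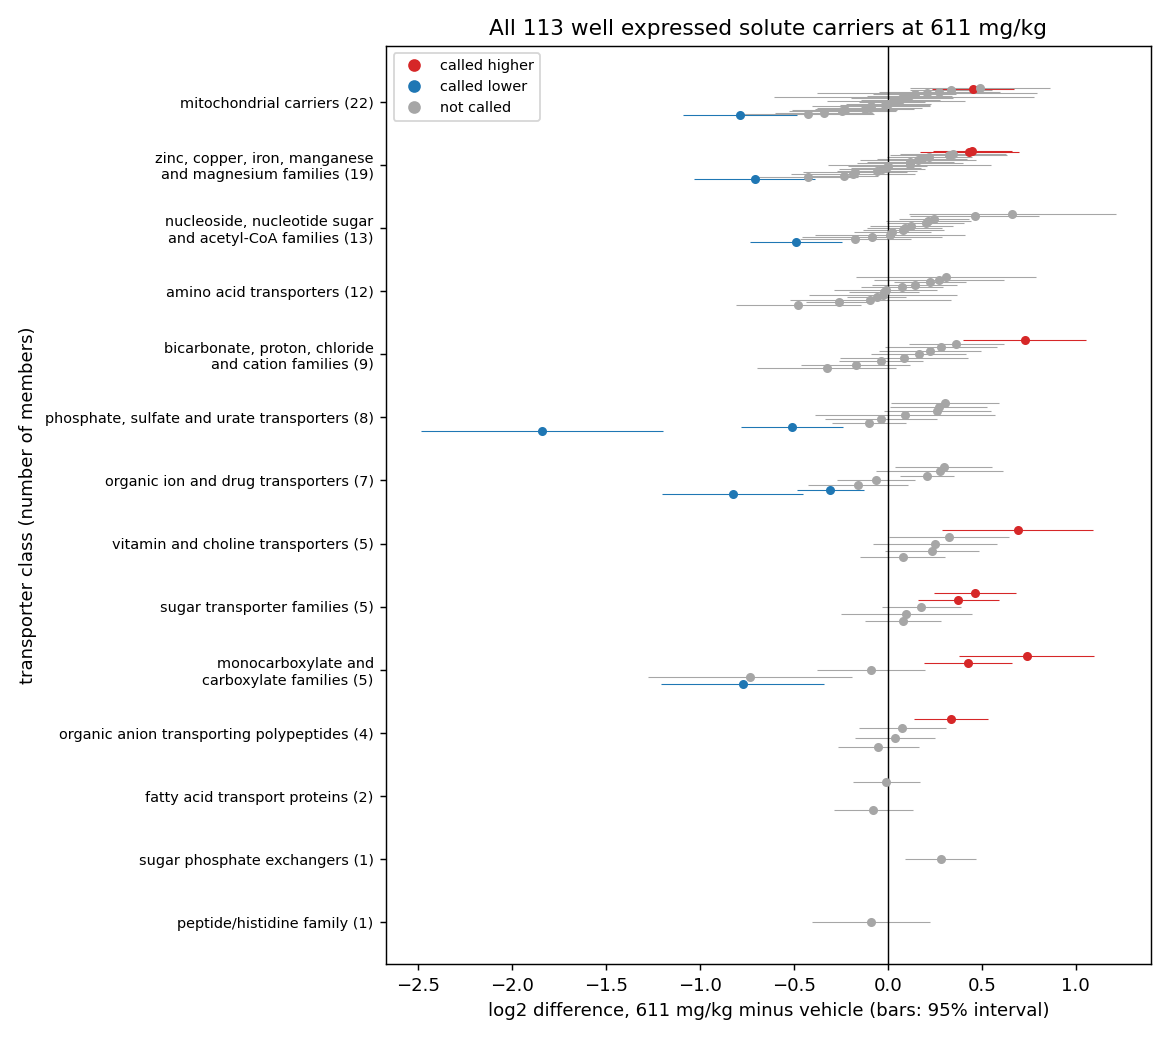
Each point is the log2 difference of 1 of the 113 members between 611 mg/kg and vehicle with its 95% interval, by transporter class, red where called higher, blue where called lower and grey where not called. Slc34a2, at -1.84, lies far to the left in the phosphate class, and the mitochondrial and metal classes are mostly grey.

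The shape of the response over dose was also counted. The 5 group means rose at every step for 2 members, or 1.77% against 1.84% of all genes. They fell at every step for 3 (Slc39a1, Slc30a3 and Slc43a2), or 2.655% against 1.554% of all genes. Slc30a3 and Slc43a2 had entered through the groups in which they were high. Of all 113 members 41.6% were farthest at 611 mg/kg, against 40.04% of all genes. Mean signals were above vehicle at all 4 doses for 33 members, or 29.2% against 21.5% of all genes, and below it at all 4 for 23, or 20.4% against 17.98%. These shares are not given here for the other genes with a mean of at least 8. At the single doses in order, 56%, 67.7%, 48.5% and 63.8% of those other genes were above vehicle. Among members the shares were 46.9%, 64.6%, 54% and 59.3%. All 4 doses share the vehicle rats. Between 611 and 76.5 mg/kg, a difference that contains no vehicle rat, 3 members were called (Slc16a7, Slc39a4 and Slc2a9), all higher, which is 2.65% against 1.51% of all genes (1.12% higher). None of the 3 remained called without 611 mg/kg rat 2, nor without 76.5 mg/kg rat 2. The count was 6 without 76.5 mg/kg rat 1, and 1 without vehicle rat 1, 2 or 3 or rat 3 of the 76.5, 153 or 305.5 mg/kg group. Shares of all genes called in these fits are not given here.

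The 18 calls at 611 mg/kg were also followed through fits that left out single rats. Shares of all genes that lost or kept a call in these fits are not given here. The losses are therefore not read as particular to the members. In all 18 the 3 rats lay outside the vehicle range, but the 18 were chosen by this same difference, so that is no separate support. Of all 113 members, called or not, 18.6% had the 3 rats above the vehicle range and 9.73% below it. Over all genes these shares were 11.5% and 7.13%. Rat 2 was farthest from vehicle in 9 of the 18, rat 3 in 6 and rat 1 in 3. That rat 2 was the highest or lowest of all 17 rats for 32.74% of members and 34.11% of all genes. Without rat 2, 13 of the 18 calls were lost and 6 members in all were called. Slc25a10, Slc25a22, Slc30a6 and Slc4a4 kept their calls. Slc34a2 did too, but it and Slc30a3 passed the threshold through the groups in which they were high. Their places among the 18 are therefore no test. Without rat 3, 9 were lost, and without rat 1, 7. Leaving out vehicle rats 1 to 5 in turn lost 6, 5, 6, 3 and 7 of the 18. Without 611 mg/kg rat 3 or vehicle rat 5, 11 members were called.

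The spread between rats was also described. The median range over 17 rats was 0.77 for members, against 0.66 for all genes with a mean of at least 8 and 0.63 for all genes, and 29 members had a range of at least 1. Slc34a2 (2.95), Slc13a4 (2.02), Slc35d2 (1.999), Slc25a30 (1.74) and Slc46a3 (1.55) had the widest. Slc27a4 and Slc38a3 (both 0.31), Slc25a13 and Slc22a18 (both 0.37) and Slc39a1 (0.40) had the narrowest. A single rat, 76.5 mg/kg rat 3, was the highest or lowest of all 17 for 38 of 113 members and 3839 of 14217 genes, and 611 mg/kg rat 2 for 37 members and 4850 genes. In 76.5 mg/kg rat 3 the zinc importer Slc39a14 was 12.35, against 11.06 to 11.43 in vehicle rats, and the nucleoside transporter Slc29a1 was 7.95 against 9.01 to 9.33. These 2 genes were picked after their values were seen. Summed neutrophil markers, 2 of which were measured, reached 9.90 at 76.5 mg/kg against 7.10 to 8.34 in vehicle rats.

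Transport genes outside the solute carriers, a list of ABC transporters, aquaporins and ion pumps of which 35 of 40 were measured, gave the following counts. At 611 mg/kg 7 were called higher and 3 lower, where 5.04% of all genes were higher and 2.42% lower. For the slope 7 were higher and 5 lower, against 3.96% and 2.78% of all genes. At 305.5 mg/kg 2 were higher and 2 lower, where 2.22% of all genes were called. At 153 and 76.5 mg/kg 1 was higher and none lower, where 0.746% and 0.267% of all genes were called. Abcc3, which exports glucuronides into blood, differed by 3.55 ± 0.36 on the log2 scale at 611 mg/kg (adjusted p = 4.3e-05), and Abcc2, which exports conjugates into bile, by 0.47 ± 0.10 (adjusted p = 0.00800). Abcb4, the phospholipid exporter of bile, differed by -0.73 ± 0.13 (adjusted p = 0.00391). Abcc3, Abcc2 and Abcb4 were picked among the called genes of the list after their values were seen. The median of the list was 0.01, against 0.08 for the 113 solute carriers and 0.00 for all genes.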

How the data were processed

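Liver RNA of 17 rats was measured on 1 array each. The deposited values are log2 signals per probe set that the authors made with RMA, per the submitters' processing notes, a method that corrects background, quantile-normalizes arrays and summarises probes. Which software ran RMA, and in what version, is not given in the sources used here. Quantile normalization gives all arrays the same distribution, so a change shared by most genes would not show. The lowest value was 2.61 and the highest 15.4, and medians per array lay between 6.29 and 6.40; the number of arrays per group limits the precision.

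Of 31099 probe sets, 20826 have a single symbol in the platform table, 436 have several and 9780 are unnamed. Each of 14217 genes was represented by its brightest probe set, and 36 of the 113 members had several. All 113 matched the gene reference by ID. Dim genes stayed in the fit. Differences were fitted with limma 3.58.1 in R 4.3.3 on all 17 arrays, with variances moderated along the mean signal, and the dose rank was fitted as a slope in a model of its own. P-values were adjusted by Benjamini-Hochberg over all 14217 genes per comparison, and a gene with adjusted p under 0.05 is said to be called. The fit was tested on simulated data. Each dose shares the 5 vehicle rats, and nothing says that rats of 1 number belong together.

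Members, transporter classes (by family number) and marker lists were chosen with earlier results of these data known, and the names left out include genes already known to change. Named were the 10 brightest members, 3 on either side of the threshold, all called members, the brightest of each class with 2 more where a class had no call, and the 5 widest and 5 narrowest ranges. Alternatives were median centring, repeated quantile normalization, the mean over a gene's probe sets, a fit without the dimmest 40% of genes, weights per array, a robust eBayes and one without the trend, a replicate block, omission of 3 arrays that stood apart or of each rat, only the groups compared, dose in mg/kg, treated rats alone, and the slope without 611 mg/kg.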

Additional observations from a re-analysis of the deposited data

Results flagged for a closer look

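Among 44 members named by rule or called, 2 had a vehicle rat far from the other 4 by Dixon's test at the 95% level, where chance flags about 1 in 20. Slc17a2 read 11.34 in vehicle rat 4 and 11.59 to 11.65 in the other vehicle rats. Slco2b1 read 10.04 in vehicle rat 2 and 10.35 to 10.42 in the others, and its call at 611 mg/kg was lost without that rat.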

How the results depend on the processing

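No member call reversed its direction in any alternative. Of 48 calls over the 6 comparisons, 3 were kept in all of their alternatives (Slc28a2 at 305.5 mg/kg, Slc25a22 and Slc34a2 at 611 mg/kg, of which Slc34a2 entered through the groups in which it was high), 45 were lost in at least 1 and 6 in at least 50% of them. The cause of these losses was not tested. Shares of all genes called in the alternatives are not given here, so the counts below describe dependence on the processing alone. Counts of called members were 0 at 76.5 mg/kg, 1 at 153, 4 at 305.5 and 18 at 611 mg/kg, 3 between 611 and 76.5 mg/kg and 22 for the slope. With array weights they became 11 at 76.5, 7 at 153 and 14 at 305.5 mg/kg and 16 between 611 and 76.5 mg/kg. Without 611 mg/kg rat 2 and 76.5 mg/kg rats 2 and 3 they were 7 at 153 and 10 at 305.5 mg/kg and 0 between 611 and 76.5 mg/kg, and at 611 mg/kg 18 were called, of which 13 were among the original 18. With only the groups compared they were 5 at 153 and 9 at 305.5 mg/kg and 0 between 611 and 76.5 mg/kg. At 153 mg/kg, repeated quantile normalization and the mean of all probe sets each gave 2. The slope gave 14 with dose in mg/kg, 8 without the 611 mg/kg group and 0 over the treated rats alone. Leaving out each rat in turn gave 0 to 0 at 76.5 mg/kg, 0 to 3 at 153, 1 to 8 at 305.5, 6 to 23 at 611 mg/kg, 0 to 6 between 611 and 76.5 mg/kg and 13 to 25 for the slope. With the replicate number as a block the counts were 6 at 611 mg/kg, 1 between 611 and 76.5 mg/kg and 6 for the slope. No label pairs the rats by number. Same-numbered rats of different groups had a median correlation of 0.01 between their deviations (-0.26 to 0.40) and differently numbered rats -0.02 (-0.35 to 0.34). These ranges overlap widely and cannot exclude a batch shared by number.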
